A study of Mus musculus with 6 samples.

Results

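The genes described are 10 feedback targets of Wnt signalling and markers of gastrointestinal stem cells: Axin2, Nkd1, Notum, Rnf43, Znrf3, Lef1, Sp5, Lgr5, Ascl2 and Tnfrsf19. They were taken by symbol from a table of read counts for 21526 genes, and all 10 were found in it. RNA was measured in epithelial cells of the mouse gastric corpus, isolated with EDTA and not cultured, in 3 Normal libraries and 3 Yap-activated libraries. Normal libraries came from wild-type (WT) mice with the disease state normal stomach. Yap-activated libraries came from CluCreERT2;R26rtTA;HA-Yap+ mice with the disease state Yap-activated gastric cancer. CreERT2 at Clu is a tamoxifen-dependent recombinase made in Clu-expressing cells, rtTA at Rosa26 is a doxycycline-dependent activator, and HA-Yap is a tagged transgene of the Hippo pathway coactivator Yap. Mice of both groups were given 2 mg tamoxifen on each of 5 days and doxycycline in food over the last 14 days. The Normal mice carried none of the 3 alleles, so a contribution of CreERT2 or rtTA to any difference cannot be told apart from that of the transgene. The ages of the mice, and whether each library came from a separate mouse, were not given in the sources used here. P-values therefore measure the spread between libraries, which may be technical.

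Wnt ligands bind Frizzled and Lrp receptors at the cell surface, which stabilises beta-catenin, and beta-catenin then acts with TCF and LEF factors to switch on target genes. Several targets feed back on the pathway: Axin2 rebuilds the complex that destroys beta-catenin, Nkd1 binds Dishevelled, Notum removes the lipid from Wnt ligands, and Rnf43 and Znrf3 remove Frizzled receptors. Lgr5, a receptor for R-spondins, protects Frizzled from those ligases and marks Wnt-dependent stem cells. In the stomach Lgr5 marks stem cells at the base of antral glands and, in the corpus, a subset of chief cells, which also express Tnfrsf19 (Troy).

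The RefSeq promoter table (GRCm38.p6) held 12 start sites for 7 of the 10 genes, and Lgr5, Notum and Znrf3 had no entry. The 250 bases before each start were searched on both strands for the TCF/LEF motif CTTTGAT, for its relatives CTTTGAA (same but for the last base) and CTTTGTT (same but for the base before it), and for the TEAD motif GGAATG, bound by the DNA-binding partners of Yap. A TCF/LEF match was present at 2 of the 12 starts, against 12% of 32851 promoters in the table, and GGAATG at 0 of 12, against 12.6%. Lef1 had 4 of the starts, some with overlapping windows, and Rnf43 and Tnfrsf19 had 2 each. So few starts cannot set these genes apart from the table. The windows with a match, at Sp5 and at an internal start of Tnfrsf19, are shown beside those of Ascl2, the stem marker that rose, and Axin2, the usual reporter of Wnt activity. Capitals mark the matches, and all are written 5′ to 3′ on the gene's strand.
Sp5, chr2:70474673-70474922, plus strand: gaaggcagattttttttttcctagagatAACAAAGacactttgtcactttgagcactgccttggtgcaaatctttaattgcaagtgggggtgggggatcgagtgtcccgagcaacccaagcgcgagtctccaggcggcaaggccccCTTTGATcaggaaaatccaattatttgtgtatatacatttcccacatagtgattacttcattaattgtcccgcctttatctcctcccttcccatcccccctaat
Tnfrsf19, chr14:61037988-61038237, minus strand: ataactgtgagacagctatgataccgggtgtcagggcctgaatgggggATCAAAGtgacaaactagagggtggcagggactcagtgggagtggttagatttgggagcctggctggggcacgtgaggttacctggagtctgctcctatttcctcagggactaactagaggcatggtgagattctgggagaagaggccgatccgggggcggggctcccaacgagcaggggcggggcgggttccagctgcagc
Ascl2, chr7:142969265-142969514, minus strand: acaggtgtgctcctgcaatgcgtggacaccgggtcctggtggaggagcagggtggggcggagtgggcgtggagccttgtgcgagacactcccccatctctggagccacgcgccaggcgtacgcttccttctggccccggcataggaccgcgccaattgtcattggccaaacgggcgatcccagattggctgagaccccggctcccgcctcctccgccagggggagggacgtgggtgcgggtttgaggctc
Axin2, chr11:108920099-108920348, plus strand: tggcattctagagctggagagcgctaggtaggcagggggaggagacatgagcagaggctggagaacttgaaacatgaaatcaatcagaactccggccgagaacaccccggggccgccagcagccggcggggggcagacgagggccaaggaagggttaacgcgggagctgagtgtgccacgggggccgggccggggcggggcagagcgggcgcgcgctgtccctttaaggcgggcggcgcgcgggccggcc
In Sp5 the CTTTGTT match lay on the opposite strand from 222 to 216 bases before the start, and the CTTTGAT match on the gene's strand from 104 to 98 bases before it. In Tnfrsf19 the CTTTGAT match lay on the opposite strand from 202 to 196 bases before the start. CTTTGAT was found in 3.21% of all promoters in the table, CTTTGAA in 4.46% and CTTTGTT in 5.03%. A match describes letters in the window and is not a measured binding site.

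The 10 genes did not move one way. Ascl2, Notum and Lef1 were higher in Yap-activated libraries, Tnfrsf19, Lgr5 and Znrf3 were lower, and Axin2, Nkd1, Rnf43 and Sp5 did not pass the threshold (edgeR's quasi-likelihood test, adjusted p of 0.05). All 10 were tested, and the 6 of 10 called compare with 59.5% of all 14600 genes tested, 29.8% higher and 29.7% lower. The median log2 fold change (Yap-activated over Normal) was 0.27 over the 10 genes and 0.01 over all genes tested. The libraries of the groups did not overlap at 7 of the 10 genes, against 67.6% of all genes tested, with 3 higher (33.2% of all genes) and 4 lower (34.4%). Levels are in TMM-scaled CPM, counts set to a common library size after a scaling for composition. In bulk RNA, fewer cells of a type and less RNA per cell cannot be told apart.

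**Figure D1:**
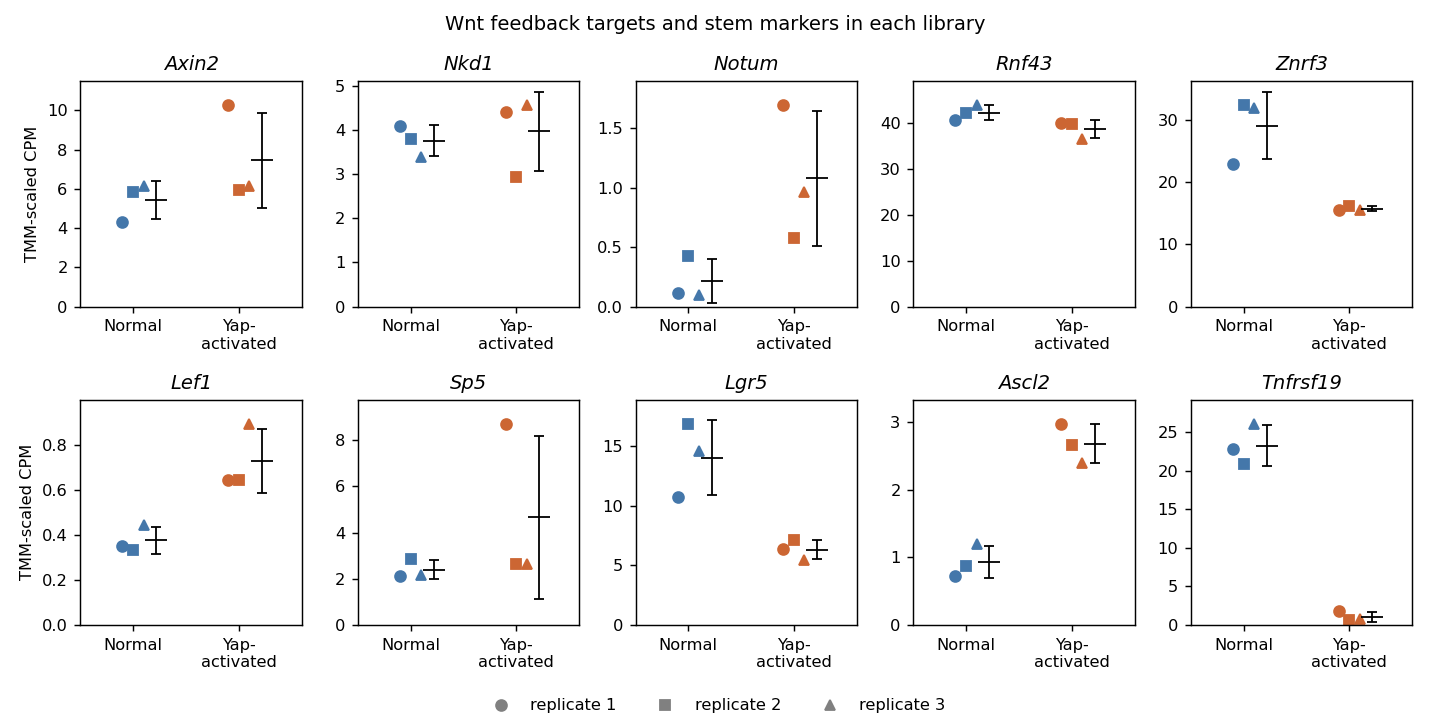
TMM-scaled CPM of each gene in each library (points, with a symbol for each replicate number) and the group mean with its SD (bars, n = 3). Tnfrsf19 fell from between 20.9 and 26.1 CPM to between 0.596 and 1.76 CPM, while the high Sp5 and Axin2 values of the Yap-activated group came from replicate 1.

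Library totals ran from 25580734 counts in Yap-activated replicate 1 to 48440033 in Normal replicate 2, and 1 count was worth 0.0186 to 0.0339 CPM. Yap1 was at 100.3, 104 and 106 CPM in Normal and 3085, 1468 and 1651 CPM in Yap-activated replicates 1 to 3. The labels name the HA-Yap transgene but no Yap1 level. Reads of the transgene and of the endogenous gene were not told apart. Markers of the corpus were high in Normal, and all 8 parietal and all 3 chief cell genes fell. All 5 antral and pyloric genes and 6 of 7 leukocyte genes rose, while 6 of 7 endothelial genes and 4 of 10 fibroblast genes fell. Over all genes tested 29.8% were higher and 29.7% lower, so the fibroblast count was near the share of all genes. Of 7 squamous genes 1 rose and 6 did not pass, but their summed CPM was 2.01, 36.3 and 0.632 in Normal and 80.1, 78.8 and 54.6 in Yap-activated libraries, so Normal replicate 2 stood above the other Normal libraries.

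Among the feedback genes, the E3 ubiquitin ligase genes Rnf43 and Znrf3 had the highest levels per kilobase of exon in Normal libraries and differed in their change. Znrf3 (chromosome 11, 5276324 to 5444847, minus strand, GRCm38) was at 22.9, 32.3 and 31.9 CPM in Normal and 15.6, 16.2 and 15.5 CPM in Yap-activated libraries. Every Yap-activated value was below every Normal value, and the gene fell by 0.89 on the log2 scale (SE 0.15, adjusted p = 0.00156). Scaled by library totals alone, without TMM, Znrf3 was at -0.40 and did not pass (adjusted p = 0.0718). Rnf43 (chromosome 11, 87662722 to 87735539, plus strand) was at 40.7, 42.3 and 44.0 CPM in Normal and 40.1, 39.8 and 36.6 CPM in Yap-activated libraries. The groups were close but did not overlap, and the log2 fold change was -0.13 (95% interval -0.34 to 0.09, adjusted p = 0.272). Library totals alone turned Rnf43 to 0.37 (adjusted p = 0.0139), a scaling under which the median of all genes was also at 0.50, so Rnf43 lay below the median gene under both scalings. The ratio of Rnf43 to Znrf3 counts within a library does not depend on scaling, and it was 1.78, 1.31 and 1.38 in Normal and 2.58, 2.46 and 2.36 in Yap-activated libraries. The ratio exceeded every Normal value in 3 of 3 Yap-activated libraries, by 0.74 on the log2 scale (2-sided exact permutation p = 0.1, the lowest possible with 3 against 3 libraries, and 0.1 when adjusted over the 3 ratios computed).

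Axin2 (chromosome 11, 108920349 to 108950783, plus strand) was at 4.31, 5.84 and 6.13 CPM in Normal and 10.3, 5.96 and 6.16 CPM in Yap-activated libraries. Yap-activated replicate 1 stood above the rest, and the other Yap-activated libraries lay within or just above the Normal range. The log2 fold change was 0.45 (SE 0.27, 95% interval -0.17 to 1.08, adjusted p = 0.18), and with Yap-activated replicate 1 left out it was 0.17 (adjusted p = 0.568). Axin2 passed when library totals alone set the scale, at 0.93 (adjusted p = 0.0156). The ratio of Rnf43 to Axin2 counts within a library was 9.45, 7.24 and 7.16 in Normal and 3.90, 6.67 and 5.94 in Yap-activated libraries. It was lower in all 3 Yap-activated libraries, with a log2 difference of -0.56 (2-sided exact permutation p = 0.1, the lowest possible, and 0.1 when adjusted over the 3 ratios). Nkd1 (chromosome 8, 88521354 to 88594884, plus strand), the inhibitor that binds Dishevelled, was at 4.08, 3.80 and 3.38 CPM in Normal and 4.41, 2.93 and 4.56 CPM in Yap-activated libraries. Its groups overlapped, with a log2 fold change of 0.08 (95% interval -0.49 to 0.65, adjusted p = 0.801), which turned to -0.033 without Yap-activated replicate 3 (adjusted p = 0.924).

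Notum (chromosome 11, 120653788 to 120661175, minus strand), which encodes the secreted Wnt deacylase, was scarce. It had 4, 18 and 3 counts in Normal and 50, 24 and 52 counts in Yap-activated libraries, or 0.117, 0.428 and 0.0949 CPM against 1.69, 0.573 and 0.967 CPM. The groups did not overlap, but Normal replicate 2 and Yap-activated replicate 2 lay close together. Normal replicate 2 had the highest squamous markers of the Normal libraries. Its summed antral and pyloric markers (197 CPM, against 56.5 and 136) and intestinal markers (335 CPM, against 312 and 264) were also the highest in Normal. The part of these cell types in the Notum values was not tested. Notum rose by 2.25 on the log2 scale (SE 0.65, 95% interval 0.75 to 3.76, adjusted p = 0.0178). Notum did not pass with Normal replicate 1 left out (1.96, adjusted p = 0.0704), nor with Normal replicate 3 left out (1.93, adjusted p = 0.0674), and it was at 3.29 with Normal replicate 2 left out. Antisense genes share exons with Notum, Axin2 and Lef1 in the annotation, and with the strand setting of the counting not given, their reads could sit in these counts.

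Of the transcription factor genes, Lef1 rose from a very low level and Sp5 did not pass the threshold. Lef1 (chromosome 3, 131110471 to 131224356, plus strand), a DNA-binding partner of beta-catenin, had 12, 14 and 14 counts in Normal and 19, 27 and 48 counts in Yap-activated libraries. In CPM these were 0.349, 0.333 and 0.443 against 0.644, 0.644 and 0.893, with no overlap. The log2 fold change was 0.96 (SE 0.34, adjusted p = 0.04), and the call was lost under 9 of 14 alternatives, among them DESeq2's test (0.98, adjusted p = 0.129). Those 9 include leaving out any 1 library other than Yap-activated replicate 2. Lef1 is also expressed by T cells, and the summed CPM of 13 lymphoid markers was between 3.83 and 5.13 in Normal and between 4.03 (replicate 2) and 12.3 (replicate 3) in Yap-activated libraries. Cd4 alone gave 7.81 CPM of the sum in Yap-activated replicate 3, against 1.46 and 1.10 CPM in replicates 1 and 2. Cd3d, Cd3e and Cd3g were each highest in Yap-activated replicate 1, at 0.61, 1.08 and 0.915 CPM. Of 6 lymphoid markers tested 1 rose, Lck, and 5 did not pass. None of the 13 was at 0 in any library. The summed CPM of 7 leukocyte markers was 48.7 to 54.3 in Normal and 166, 68.2 and 290 in Yap-activated libraries. The part of these cells in the Lef1 count was not tested.

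Sp5 (chromosome 2, 70474923 to 70477729, plus strand), a zinc finger factor gene whose window above held 2 of the 3 TCF/LEF matches found, was at 2.13, 2.88 and 2.18 CPM in Normal. Yap-activated replicates 1 to 3 had 8.71, 2.62 and 2.62 CPM. Replicate 1 stood above every other library, and the other Yap-activated values lay inside the Normal range. The log2 fold change was 0.94 (SE 0.50, 95% interval -0.21 to 2.10, adjusted p = 0.136), and 0.14 without Yap-activated replicate 1 (adjusted p = 0.698). Sp5 passed with library totals alone, at 1.42 (adjusted p = 0.0326). Axin2, Notum, Sp5 and Ascl2, 4 of the 10 genes, had their highest value of all 6 libraries in Yap-activated replicate 1. The share of all genes tested that were highest in that library was not computed, so the count has no background. That library also had the highest Yap1 level and the smallest total of counts. Whether any of these bear on the Sp5 and Axin2 values was not tested.

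**Figure D2:**
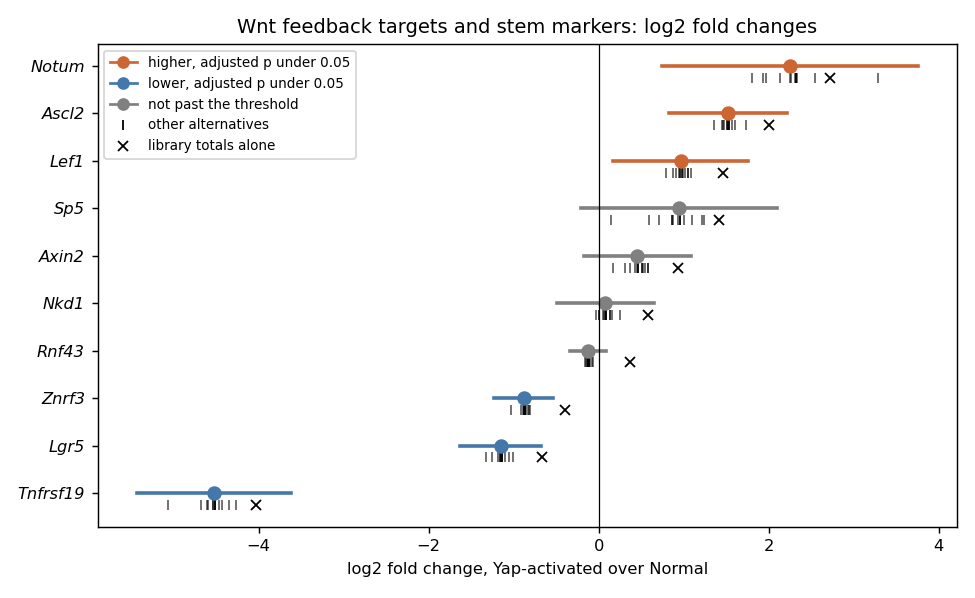
Log2 fold change of Yap-activated over Normal for each gene (points) with its 95% interval from edgeR's quasi-likelihood fit (bars), and the values under the alternative settings (ticks, with library totals alone as crosses). Tnfrsf19, Lgr5 and Ascl2 stayed past the threshold under all 15 alternatives run, and Rnf43 and Nkd1 lay closest to 0.

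The stem markers changed in opposite directions, with Tnfrsf19 and Lgr5 lower and Ascl2 higher. Tnfrsf19 (chromosome 14, 60963875 to 61046490, minus strand), a receptor of the TNF receptor family, was at 22.7, 20.9 and 26.1 CPM in Normal and 1.76, 0.596 and 0.762 CPM in Yap-activated libraries. The mean was 22.3-fold lower, with a log2 fold change of -4.53 (SE 0.39, adjusted p = 5.98e-05). Lgr5 (chromosome 10, 115450311 to 115587780, minus strand) was at 10.7, 16.9 and 14.5 CPM in Normal and 6.34, 7.11 and 5.49 CPM in Yap-activated libraries. Its groups did not overlap either, with 14.0 ± 3.12 against 6.31 ± 0.811 CPM (SD, n = 3). Lgr5 fell by 1.15 on the log2 scale (SE 0.21, adjusted p = 0.00195), and by 0.67 with library totals alone (adjusted p = 0.0275).

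Lgr5 and Tnfrsf19, both higher in Normal, differed in how far they moved. The ratio of Lgr5 to Tnfrsf19 counts was 0.47, 0.807 and 0.558 in Normal and 3.60, 11.9 and 7.20 in Yap-activated libraries. All 3 Yap-activated libraries lay above the Normal ones, by 3.50 on the log2 scale (2-sided exact permutation p = 0.1, again the lowest possible). The ratio restates the changes of both genes given above and is no separate support. Markers of chief cells, a subset of which carries both genes in the normal corpus, were lower by a wider margin than Lgr5. The summed CPM of Pgc, Pga5 and Bhlha15 was between 87910 and 137700 in Normal and between 152 and 186 in Yap-activated libraries. Pgc, the pepsinogen C gene, was at -9.37 and Bhlha15, a transcription factor of mature secretory cells, at -5.89 on the log2 scale. Of antral markers, Pdx1, a transcription factor of the antrum and duodenum, rose by 3.30 and Onecut2 by 8.13, and the summed CPM of 5 such genes went from between 56.5 and 197 to between 843 and 1122. The part of these cell types in the Lgr5 and Tnfrsf19 changes was not tested.

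Ascl2 (chromosome 7, 142966829 to 142969264, minus strand), a basic helix-loop-helix factor of intestinal stem cells, was at 0.728, 0.879 and 1.20 CPM in Normal and 2.98, 2.67 and 2.40 CPM in Yap-activated libraries. The lowest Yap-activated library lay well above the highest Normal library, and the mean was 2.87-fold higher. Ascl2 rose by 1.52 on the log2 scale (SE 0.30, 95% interval 0.82 to 2.21, adjusted p = 0.00315). Of 8 intestinal markers 6 were tested, and 4 rose, such as Lgals4 at 2.32 and Cdh17 at 5.63. The other 2 did not pass, Fabp2 at -0.87 and Muc2 at -0.49. Cdx1 and Cdx2 were not tested. Cdx1 had 0 counts in every library, and Cdx2 had 0 in Normal and 30, 4 and 19 in Yap-activated libraries. The summed CPM of the 8 went from between 264 and 335 to between 1089 and 1902. Most of it was Lgals4, with means of 263 and 1311 CPM, while Cdh17 reached 1.51 CPM. The part of intestinal cells in the Ascl2 value was not tested.

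**Figure D3:**
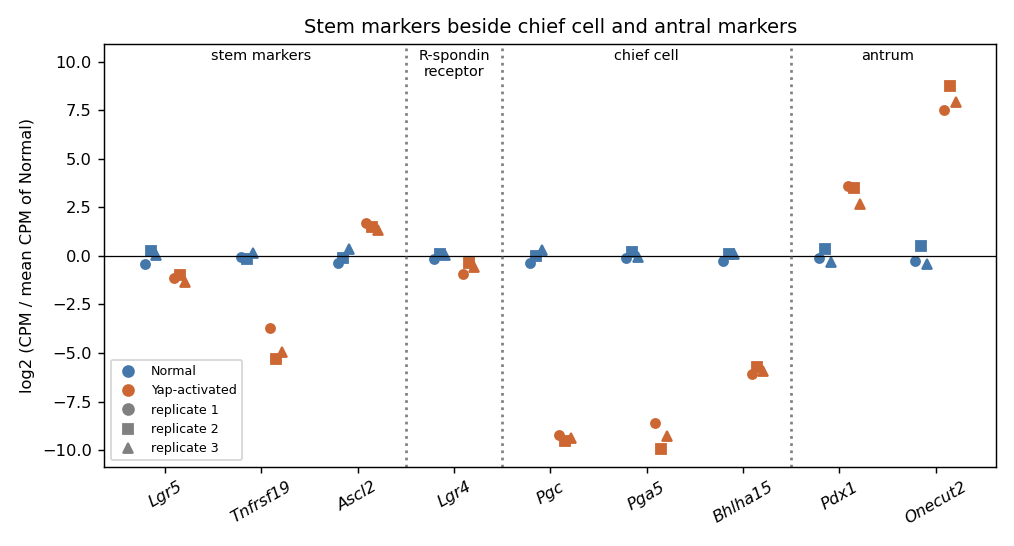
Log2 of each library's CPM over the mean CPM of Normal, for the 3 stem markers, the R-spondin receptor gene Lgr4, 3 chief cell genes and the antral genes Pdx1 and Onecut2 (points, with a symbol for each replicate number). Lgr5 and Lgr4 fell by less than Tnfrsf19, and the chief cell genes fell by more than any of them.

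Levels can be compared between genes only per length, so CPM was divided by the kilobases of exon in GENCODE. The length joined the exons of all annotated transcripts, from 1 for Sp5 to 9 for Rnf43. Genes with many transcripts can thus come out lower than their true level, so the order between genes is approximate. In Normal libraries Rnf43 was highest, at 6.45 ± 0.244 CPM per kilobase, followed by Tnfrsf19 at 4.91 ± 0.554 and Znrf3 at 3.68 ± 0.676 (SD, n = 3), with no overlap between neighbours in this order. Lgr5 (1.37), Sp5 (1.14), Axin2 (0.986) and Nkd1 (0.824) came next, and each overlapped its neighbour. Ascl2 (0.577) lay below these, and Notum (0.0885) and Lef1 (0.0427) were lowest and overlapped.

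In Yap-activated libraries Rnf43 was again highest, at 5.92 ± 0.295 CPM per kilobase. Sp5 at 2.22 ± 1.67 and Znrf3 at 1.99 ± 0.0459 overlapped, as did Ascl2 at 1.65 ± 0.180 and Axin2 at 1.36 ± 0.442 (SD, n = 3). Nkd1, Lgr5, Notum and Tnfrsf19 followed at 0.870, 0.615, 0.448 and 0.220 CPM per kilobase, each overlapping the next. Lef1 was last, at 0.0827. Tnfrsf19 thus went from rank 2 to rank 9, and Ascl2 from rank 8 to rank 4. The place of Sp5 above Ascl2 rested on Yap-activated replicate 1. Sp5 was at 4.15, 1.25 and 1.25 CPM per kilobase in replicates 1 to 3, and Ascl2 at 1.84, 1.65 and 1.48.

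**Figure D4:**
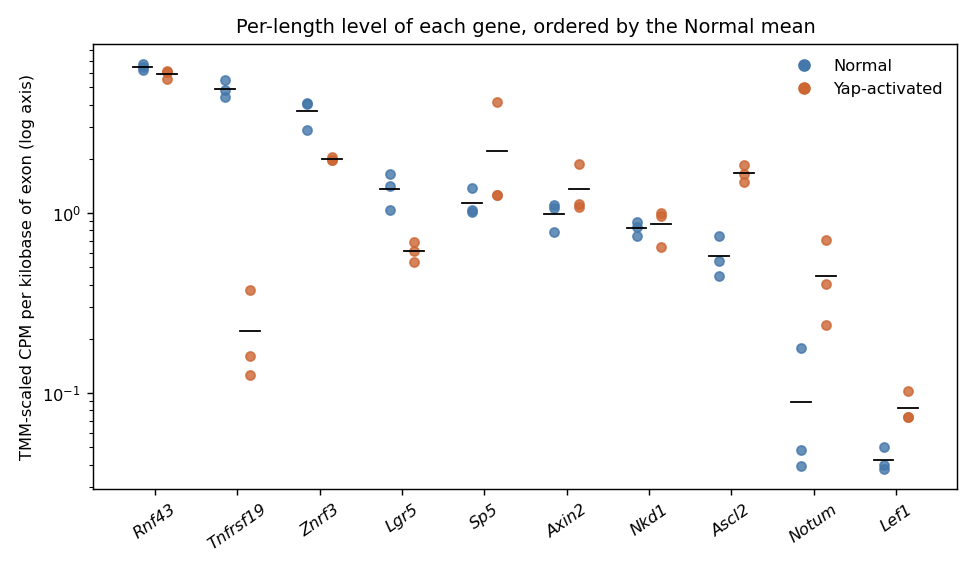
TMM-scaled CPM per kilobase of exon on a log axis for each gene in Normal and Yap-activated libraries (points are libraries, lines are group means), ordered by the Normal mean. Rnf43 is highest and Lef1 lowest in both groups, and Tnfrsf19 drops from 4.91 to 0.220.

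The rest of the pathway is given by 7 lists of other Wnt and stem genes. Over all genes tested 29.8% were higher and 29.7% lower, with a median log2 fold change of 0.01. The counts of every list below are to be read beside these shares. Of 16 other Wnt inhibitors and feedback genes 13 were tested. Of these 7 were higher, 2 lower and 4 not past the threshold, with a median log2 fold change of 0.72. The higher genes include Tcf7, which is also counted in the list of TCF factors below. Dkk2, an antagonist that binds Lrp receptors, rose by 5.39 on the log2 scale, from 0.221 to 9.43 CPM, and Wif1, a secreted Wnt inhibitor, by 3.30. Sostdc1, another secreted antagonist, fell by 5.64, and Kremen1, a receptor for Dkk proteins with the highest mean CPM of the list, rose by 0.72. Of 14 tested genes of Wnt ligands and their secretion, from 21, 8 rose, 3 fell and 3 did not pass (median 0.79). Porcn, the enzyme that adds the lipid that Notum removes, rose by 2.24, from 23.5 to 111 CPM. Wls, the carrier of Wnt ligands, rose by 0.55, and the ligand genes Wnt7a and Wnt7b went from 0.0369 to 28.2 CPM and from 0.168 to 40.5 CPM.

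Receptors and R-spondins were split, with 7 of 18 tested genes higher, 6 lower and 5 not past the threshold (21 in the list, median -0.08). These counts lay near the shares of all genes tested, 29.8% higher and 29.7% lower. Fzd4, a Frizzled receptor, fell by 3.59 on the log2 scale, while Fzd1 rose by 1.53 and Ror2, a receptor of noncanonical Wnt signalling, by 1.80. Lgr4, a relative of Lgr5 with the highest mean CPM of these genes over all 6 libraries, was at 190, 221 and 219 CPM in Normal and 110, 165 and 140 CPM in Yap-activated libraries, a log2 fold change of -0.60 (SE 0.16, adjusted p = 0.0124). With library totals alone Lgr4 did not pass (-0.11, adjusted p = 0.611). Per kilobase of exon it stood at 35.7 in Normal and 23.5 in Yap-activated libraries, far above Lgr5 in both.

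In the list of the destruction complex and its regulators, 5 of 15 genes rose, 3 fell and 7 did not pass (median -0.05). Over all genes tested 29.8% were higher and 29.7% lower. The list also held beta-catenin itself, the Dishevelled genes Dvl1, Dvl2 and Dvl3, and Tnks and Tnks2. Those that rose were Csnk1a1, Ctnnb1, Fbxw11, Tnks and Tnks2, and those that fell were Apc, Amer1 and Btrc. Ctnnb1, which encodes beta-catenin, rose by 0.81 on the log2 scale, from 343 to 604 CPM. Amer1, a tumour suppressor of the complex, fell by 1.44, and Btrc, a ubiquitin ligase adaptor for beta-catenin, by 0.66, a call lost with library totals alone (-0.17, adjusted p = 0.323). Of 15 TCF factors and cofactors, 4 rose, 6 fell and 5 did not pass (median 0.08). Tcf7, a relative of Lef1, rose by 1.57, from 4.63, 4.18 and 3.64 CPM to 16.5, 10.3 and 10.4 CPM, and Bcl9, a coactivator, by 0.89. Tle2, a corepressor, fell by 1.81, and Tle3, another, was at -0.46, which turned to 0.035 with library totals alone and did not pass without Normal replicate 2 (adjusted p = 0.0514).

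Other Wnt target genes were higher more often than lower, with 14 of 20 tested genes higher, 3 lower and 3 not past the threshold (25 in the list, median 1.30). The genes with the smallest p were Plaur, a urokinase receptor, Cd44 and Sox4, at 4.52, 4.92 and 2.02 on the log2 scale. Slc12a2, an ion cotransporter with the highest mean CPM of the list over all 6 libraries though not in Yap-activated libraries alone, was at -0.92, a call lost with library totals alone (-0.43, adjusted p = 0.072). Many of these targets are also regulated by other pathways. Of 18 other stem and progenitor markers 6 rose, 7 fell and 5 did not pass (median -0.09). The 3 with the smallest p all fell. Bhlha15, which is also in the chief cell list, fell by 5.89, Cckbr, a gastrin receptor, by 4.30 and Cd24a by 1.76. The 6 that rose were Aqp5 (3.05), Iqgap3 (1.93), Tert (1.37), Stmn1 (1.26), Prom1 (1.24) and Runx1 (0.65).

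**Figure D5:**
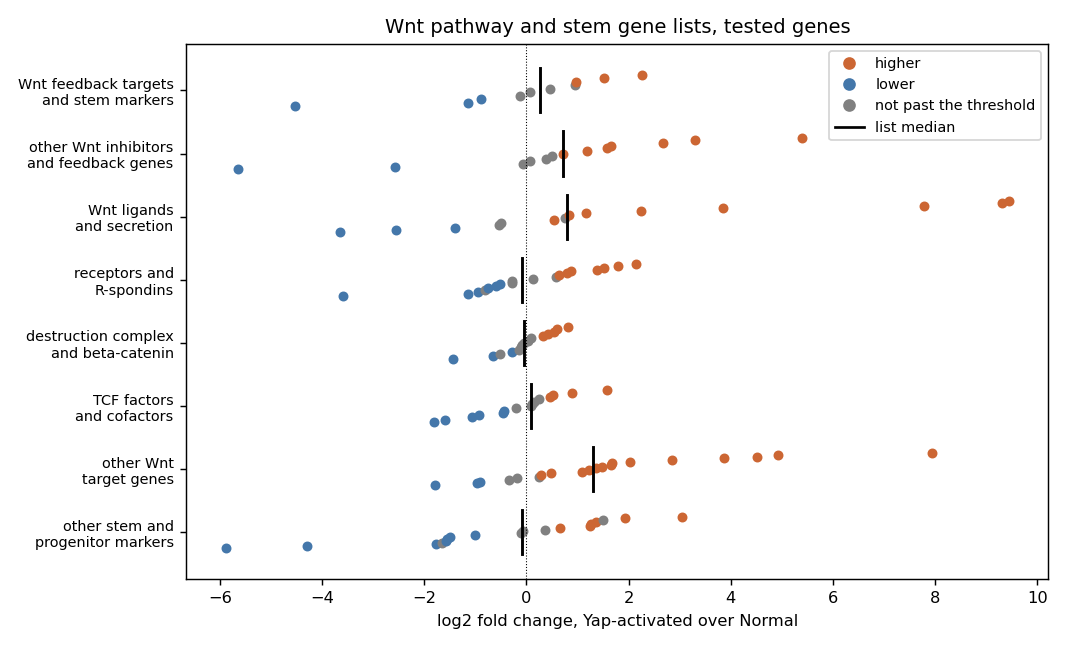
Log2 fold change of Yap-activated over Normal for the tested genes of each list (points, coloured by whether they passed the threshold) with the list median (vertical line). Wnt10a and Mmp7 had 0 counts in every Normal library, so their places at the right depend on the fit; the medians were the same with both at the bound that 3 counts over the Normal group give.

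By the distance between log2 CPM profiles centred over the 6 libraries, the genes most like Axin2 were Pdxk (distance 0.169), Ccdc92 (0.23) and Saxo2 (0.288). Those most like Lgr5 were Nfasc (0.167), Dnajc3 (0.237) and Mlec (0.277), at log2 fold changes of -1.18, -1.05 and -1.05. These distances describe 6 libraries that share their group difference, and carry no test.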

How the data were processed

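Read counts per gene symbol for 6 libraries were used as the authors deposited them, as whole numbers with no normalization. STAR 2.4.2a and DESeq2 appear in the submitters' processing notes, with GRCm38 (mm10) as the build. How reads were counted, with which strand setting and annotation, was not given in the sources used here. Coordinates and exon lengths came from GENCODE mouse release 21, which held 21523 of the 21526 symbols.

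Genes were kept by filterByExpr (minimum count 10, 14600 genes), scaled by TMM and tested with the robust quasi-likelihood F-test of edgeR 4.0.16 in R 4.3.3, comparing the groups over all 6 libraries, with Benjamini-Hochberg adjustment over all genes tested and a threshold of 0.05. The SE was obtained from the log2 fold change and F. Alternatives were 3 other scalings, other filters, DESeq2 1.42.0, voom in limma 3.58.1, a replicate block, leaving out each library and thinning to the smallest total. All 10 genes are named. In other lists these are up to 3 tested genes with the smallest p and the gene with the highest mean CPM. Marker genes and some list members that rose or fell were added after their values were seen. Likeness was computed for Axin2 and Lgr5. The genes and lists were chosen with earlier results of these data known. The 3 ratios were picked pairs, and other pairs of the 10 genes were not computed. Replicates differed by more than sampling noise.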

Additional observations from a re-analysis of the deposited data

How the results depend on the processing

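In total 15 alternatives were run. Tnfrsf19, Lgr5 and Ascl2 kept their direction and stayed past the threshold in each. With library totals alone 7522 of all genes were higher and 2299 lower, with 76.6% of calls higher against 50% with TMM, and 6 of the 10 genes were higher. Values that changed sign were Rnf43 at 0.37 and Tle3 at 0.035 with library totals alone, and Nkd1 at -0.033 without Yap-activated replicate 3. With 1 library left out Nkd1 reached at most 0.25 (without Yap-activated replicate 2), and with library totals alone it was at 0.57 (adjusted p = 0.069). With a filter of 1 CPM in at least 3 libraries 1 of the 10 genes was higher, since Notum and Lef1 were then not tested. Leaving out each library in turn gave 1 to 3 of the 10 genes higher and 3 lower, and 3530 to 4304 genes higher and 3674 to 4273 lower over all genes tested. The number higher was 1 without Normal replicate 1 or Normal replicate 3, where Notum and Lef1 did not pass. Of 599 values of other named genes under alternatives 592 kept their direction and side of the threshold, 4 no longer passed, 2 newly passed and 1 changed sign. Not every named gene was among these, such as Aqp5 and the other stem and progenitor markers that rose. Where no reason is given, the cause was not tested. Replicate numbers are shared by the groups. The deviations of same-numbered libraries from their group means correlated at 0.04, 0.003 and 0.069, so no shared deviation was seen. With 3 libraries a group this cannot show that the libraries were unpaired, and the main test did not pair them. With the replicate number as a block 2 of the 10 genes were higher and 3 lower, and 4239 and 4322 over all genes; not every library correlated best with its own number. Depth limits Notum and Lef1, with 3 to 52 counts a library.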
